A study of Mus musculus with 10 samples.

Results

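The replication-dependent histone genes of the Hist1 cluster on mouse chromosome 13 were described by their CpG methylation in prospermatogonia, the germ cells of the late fetal testis. The members were the 53 genes whose GENCODE M21 symbol starts with Hist1h between 21.7 and 22.05 Mb and between 23.53 and 23.775 Mb of that chromosome (mm10), 52 of them protein coding. Of these, 30 had at least 1 CpG of the deposited table within 1 kb, 29 had at least 3, and 23 had none. Together they held 460 of the 1348062 CpG positions used. The testis-type histones were set against them: Hist1h1t, which lies inside the second interval and had no CpG in the table, and the neighbours Hist1h2ba and Hist1h2aa, which lie outside both intervals, at chr13:23933773-23934156 and chr13:23934462-23934851, and shared the same 39 CpGs. Neighbouring genes also shared CpGs among the members, so that the 30 genes formed 20 loci with 24 distinct sets of CpGs, and 12 genes had exactly the CpGs of another member.

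Reduced representation bisulfite sequencing (RRBS), which reads methylation in fragments cut at CCGG sites, was done on 5 control pools and 5 arsenic pools. Control dams, pregnant C3H/HeN mice, drank tap water, and arsenic dams drank tap water with sodium arsenite from mid gestation to late gestation. Each pool combined testes of male fetuses, with at most a pair of testes from any dam, and the cells were taken by magnetic separation for Thy1.2. The sample labels name the cells prospermatogonia, although the title of the series names type A spermatogonia. The table held 44207245 to 66570870 CpG calls per pool with a coverage of at least 10 everywhere, and the mean level over the table was 45.9% ± 0.581 (SD, n = 5) in control pools and 45.4% ± 1.98 (SD, n = 5) in arsenic pools, with arsenic pool 1 lowest at 42.1%.

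The purity of the pools was read from promoters fixed as markers. The promoters of 11 measured germline genes, such as Dazl and Ddx4, an RNA-binding protein and a helicase of germ cells, are known to be unmethylated in germ cells and methylated in body cells. Their mean was 57.9% ± 3.93 in control pools and 60.3% ± 9.50 in arsenic pools (SD, n = 5 each), with pools from 47.3% to 72.0%, and 11 of 11 were at 20% or more. Maternal imprints are known to be erased in fetal male germ cells. The promoters of 7 measured genes listed for such imprints averaged 33.9% ± 4.59 and 38.9% ± 9.13 (SD, n = 5 each). Of the 7, 6 were at 20% or more, and Igf2r, whose promoter need not hold its imprint, was lowest at 13.6%. The state known for germ cells was therefore not seen in the mean of either list, and every level below belongs to the whole pool. A partial level in a pool and a mixture of methylated and unmethylated cells cannot be told apart in these data.

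Replication-dependent histone genes encode the bulk of the linker histone H1 and of the core histones H2A, H2B, H3 and H4, are transcribed in S phase, and give mRNAs that end in a stem-loop in place of a poly(A) tail. Their copies lie in clusters, and their CpG-rich bodies and promoters are usually free of methylation in dividing cells. The testis-type histones are the exception: Hist1h2ba encodes the H2B variant TH2B, Hist1h2aa the H2A variant TH2A and Hist1h1t the linker histone H1t, which are made in male germ cells and replace their somatic counterparts there. Hist1h2ba and Hist1h2aa point away from each other across 305 bases.

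The contrast between both kinds of gene was visible within 1 homologous stretch of coding sequence, shown here because its CpGs were read in Hist1h2ba and in canonical H2B genes alike. The stretch runs from base 157 to 286 of the 381-base coding sequence of Hist1h2ba and from base 154 to 283 of the 378-base canonical coding sequences. It is printed 5′ to 3′ on the coding strand from GRCm38, with the CpGs measured in the table in capitals, for Hist1h2ba at chr13:23933871-23934000 (minus strand), Hist1h2bj at chr13:22043383-22043512 (plus strand), Hist1h2bh at chr13:23543070-23543199 (minus strand) and Hist1h2bf at chr13:23573908-23574037 (minus strand).
Hist1h2ba: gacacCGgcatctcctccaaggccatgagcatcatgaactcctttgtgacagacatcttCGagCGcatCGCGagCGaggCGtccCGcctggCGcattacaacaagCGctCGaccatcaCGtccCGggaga
Hist1h2bj: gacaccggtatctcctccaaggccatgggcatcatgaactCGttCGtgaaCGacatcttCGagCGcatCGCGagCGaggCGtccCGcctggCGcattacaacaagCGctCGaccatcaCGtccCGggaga
Hist1h2bh: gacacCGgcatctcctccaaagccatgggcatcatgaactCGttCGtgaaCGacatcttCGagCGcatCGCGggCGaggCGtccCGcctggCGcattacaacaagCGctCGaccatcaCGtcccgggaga
Hist1h2bf: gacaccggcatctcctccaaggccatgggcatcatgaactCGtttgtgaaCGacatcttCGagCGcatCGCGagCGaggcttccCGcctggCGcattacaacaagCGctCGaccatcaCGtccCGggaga

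Over these 130 bases Hist1h2ba was identical to Hist1h2bj at 124, to Hist1h2bh at 123 and to Hist1h2bf at 125 positions. The methylation level of the CpGs inside the stretch averaged 74.8% ± 4.98 in control pools and 78.8% ± 6.51 in arsenic pools (SD, n = 5 each) for Hist1h2ba. For Hist1h2bj it averaged 0.922% ± 0.612 and 0.969% ± 0.389, for Hist1h2bh 0.523% ± 0.349 and 0.670% ± 0.284, and for Hist1h2bf 0.879% ± 1.03 and 0.615% ± 0.281. The lowest pool of Hist1h2ba was at 69.2%. Of the 6 canonical H2B genes measured in this stretch, the highest pools were 13.5% in Hist1h2bm and 8.13% in Hist1h2bn, and those of Hist1h2be, Hist1h2bf, Hist1h2bj and Hist1h2bh were 2.86%, 2.52%, 1.56% and 0.968%. Stretches of nearly the same sequence thus carried high levels in the testis-type gene and low levels in the canonical genes, in 10 of 10 pools.

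Position by position, 13 CpGs of the Hist1h2ba coding sequence had a measured counterpart in 2 to 6 canonical H2B genes, namely Hist1h2be, Hist1h2bf, Hist1h2bh, Hist1h2bj, Hist1h2bm and Hist1h2bn. Hist1h2ba ranged from 65.5% to 80.0% over these 13 positions, as means of 10 pools. The canonical genes gave 67 levels at the same positions, of which 63 were under 5%. The 4 higher levels were 14.1% in Hist1h2bm, 10.8% in Hist1h2bn and 5.84% in Hist1h2be, all at base 162, and 8.19% in Hist1h2bj at base 280. Such likeness also limits mapping. After conversion of every C to T, the sequence of 50 bases on each side of a CpG was searched at 70 histone genes. It was found again elsewhere for 82 of the 460 member CpGs and 6 of the 39 CpGs of Hist1h2ba and Hist1h2aa, so those levels are less certain. Hist1h2ba and the canonical genes Hist1h2be, Hist1h2bf, Hist1h2bh, Hist1h2bj and Hist1h2bn held such CpGs. The stretch was not compared without them.

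**Figure D1:**
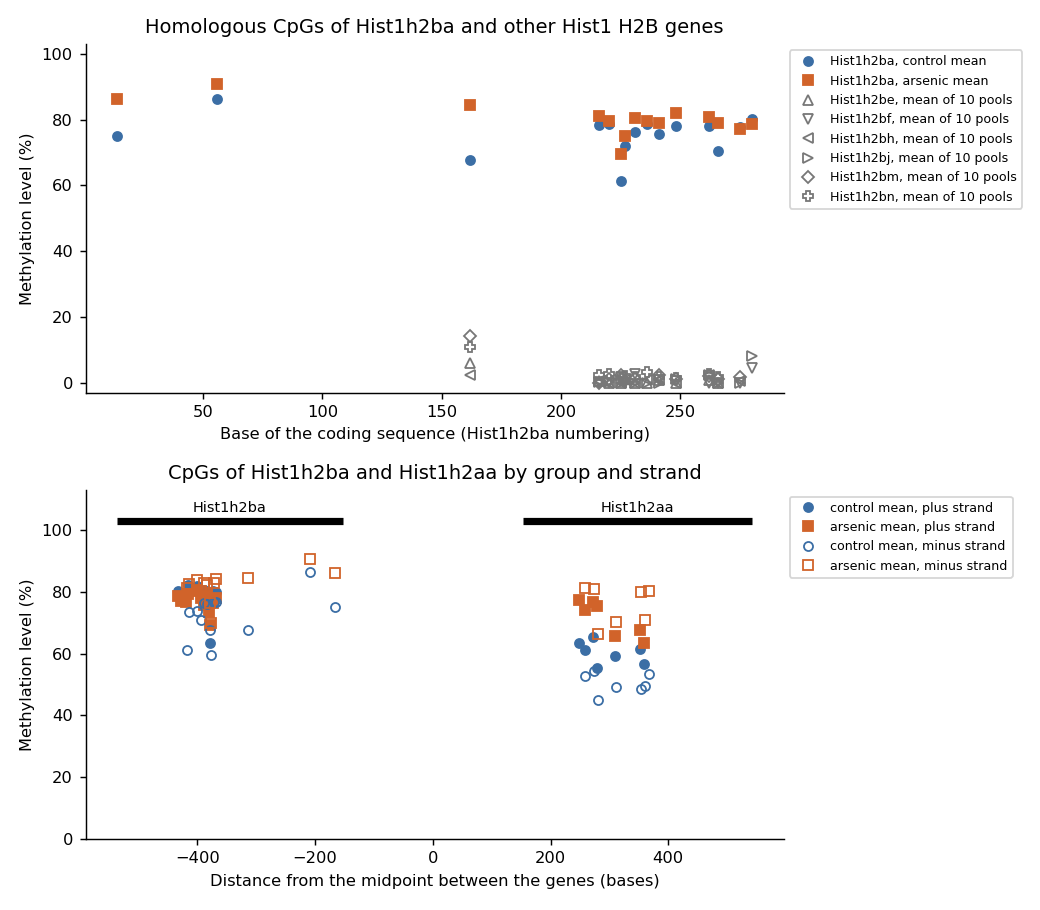
Upper plot, methylation level in percent against the base of the coding sequence in Hist1h2ba numbering, with Hist1h2ba as group means of 5 pools (blue circles control, orange squares arsenic) and 6 canonical H2B genes as means of 10 pools (grey outlines): as means of 10 pools, Hist1h2ba lies between 65.5% and 80.0% at the 13 shared positions and the canonical genes at 14.1% or lower. Lower plot, group means of the 39 CpGs of Hist1h2ba and Hist1h2aa against their distance in bases from the midpoint between the genes, filled for the plus and open for the minus strand: arsenic means lie above control means at all 14 CpGs of Hist1h2aa and at 15 of 25 of Hist1h2ba.

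A promoter of each kind of gene is printed next for its sequence, and the levels of these promoters were not compared. The first is that of Hist1h2ba at chr13:23934107-23934406 (minus strand), which overlaps that of Hist1h2aa, and the second that of Hist1h4j, an H4 gene, at chr13:21734784-21735083 (plus strand), both from RefSeq on GRCm38.p6, from 250 bases before to 50 after the start, with measured CpGs in capitals.
Hist1h2ba promoter: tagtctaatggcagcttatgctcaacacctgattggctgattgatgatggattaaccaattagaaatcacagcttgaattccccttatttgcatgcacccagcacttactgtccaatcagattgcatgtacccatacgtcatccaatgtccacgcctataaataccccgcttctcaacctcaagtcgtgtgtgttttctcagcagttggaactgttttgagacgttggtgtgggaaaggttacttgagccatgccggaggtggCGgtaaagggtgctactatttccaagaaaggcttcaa
Hist1h4j promoter: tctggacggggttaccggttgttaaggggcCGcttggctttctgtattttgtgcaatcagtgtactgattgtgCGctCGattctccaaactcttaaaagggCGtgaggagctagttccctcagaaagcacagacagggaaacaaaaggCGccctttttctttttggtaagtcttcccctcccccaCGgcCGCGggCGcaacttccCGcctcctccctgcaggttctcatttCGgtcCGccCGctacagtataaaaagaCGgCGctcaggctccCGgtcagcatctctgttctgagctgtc

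The Hist1h2ba promoter held 7 CpGs, with an observed to expected CpG ratio of 0.455, and 1 of them was measured, inside the coding sequence, at 80.6%. The Hist1h4j promoter held 18 CpGs, with a ratio of 0.807, and its 16 measured CpGs averaged 0.380%. Of the 53 members, 48 matched a RefSeq promoter on their own strand and within 1 kb. Without Hist1h1t the member promoters had a median of 11 CpGs and a median ratio of 0.772, against 7 and 0.384 over all 32851 RefSeq promoters. In 8 member promoters CpGs were measured, and their levels ranged from 0.380% to 1.79%.

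Sequence elements of histone promoters were searched on both strands of the 300 bases. Without Hist1h1t, TATAAA stood in 29 of 48 member promoters (60.4%) and in 13.6% of all RefSeq promoters, CCAAT in 40 (83.3%) against 37.4%, and the octamer ATTTGCAT, a site known from H2B promoters, in 9 (18.8%) against 1.74%. All 14 promoters of the matched H2B members held CCAAT, and 5 of them held ATTTGCAT. The promoter shared by Hist1h2ba and Hist1h2aa held all 3. None of these motifs contains another, although neighbours can share end letters. The 48 promoters belong to 47 genes, and those of Hist1h2bq and Hist1h2br, both H2B genes, are identical. Promoters of neighbouring H2A and H2B genes that point away from each other can overlap, so that 1 site may count for both. The counts are a description.

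The canonical members were almost free of methylation in both groups. Over the 30 genes with CpGs the median level was 1.29%, against 42.4% for the 27284 genes of the table with at least 3 CpGs, of which 15.9% lay under 5%. By gene, 25 members were under 5%, 4 lay between 5% and 20%, and 1 lay above. By CpG, 376 of 460 were under 5% and 48 were at 20% or more. No methylated read was seen at 117 CpGs, which had 165 to 1029 reads summed over the 10 pools and so allow a level of up to 1.82% and 0.292%, counting error only. By the rate the paper gives, bisulfite conversion was not complete, and unconverted cytosines are read as methylated. Levels and differences of a few points may hold such cytosines, which was not tested. The pools of the groups overlapped for each of the 30 members. They did not overlap for 1.75% of all genes with at least 3 CpGs, a share so low that 0 of 30 is near it.

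The histone types had similar levels. The median was 1.14% over 5 H1 genes, 1.19% over 8 H2A genes, 2.05% over 8 H2B genes, 1.25% over 4 H3 genes and 1.26% over 5 H4 genes, without a test. For each type the member under 5% with the most CpGs is given, so that its low level was fixed by the choice. Hist1h1c, which encodes the linker histone H1.2, had 71 CpGs at 0.964% ± 0.386 and 1.31% ± 1.11 in the control and arsenic groups (SD, n = 5 each), and its 21 upstream CpGs were highest in arsenic pool 4, at 9.09%. Hist1h2bh (H2B, 29 CpGs) was at 1.60% ± 0.60 and 1.80% ± 0.784. Hist1h4j (27 CpGs) was at 0.346% ± 0.328 and 0.316% ± 0.281, Hist1h3f (H3, 21 CpGs) at 1.71% ± 0.954 and 1.63% ± 0.639, and Hist1h2ad (H2A, 18 CpGs) at 0.928% ± 0.686 and 0.805% ± 0.512. Each of these 5 genes had group means within 1 SD of each other.

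**Figure D2:**
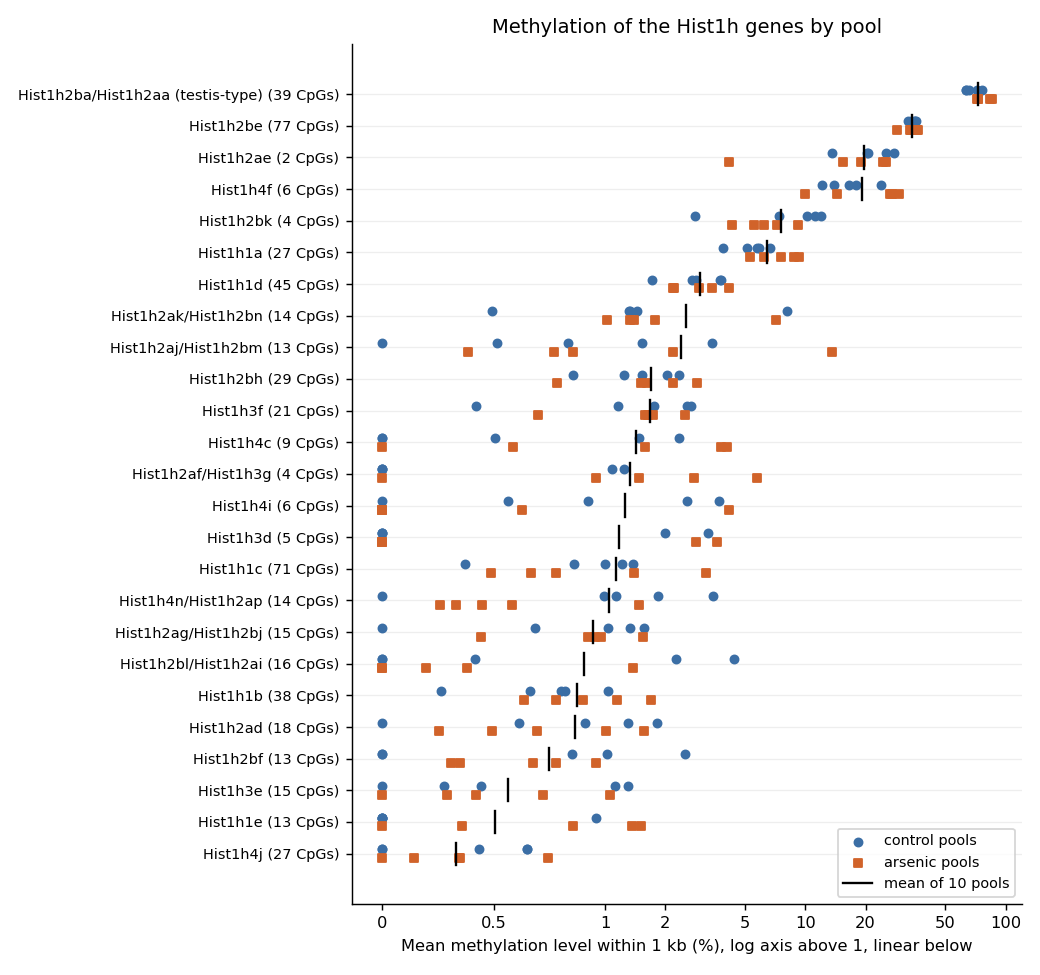
Mean methylation level within 1 kb, in percent on an axis that is logarithmic above 1 and linear below, for the 24 distinct CpG sets of the member genes and for Hist1h2ba with Hist1h2aa, with a blue circle per control pool, an orange square per arsenic pool and a black bar at the mean of 10 pools. The testis-type genes lie between 63.5% and 85.6%, Hist1h2be between 28.6% and 36.7%, and most other members around 1%.

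The 48 CpGs at 20% or more lay upstream or downstream of a member or in the intron of Hist1h2be. Leaving out Hist1h2be, CpGs within the annotated genes averaged 1.07% (289 CpGs of 18 genes), those upstream 3.05% (65 CpGs) and those downstream 8.29% (29 CpGs), and 0, 1 and 4 of them reached 20%. The upstream CpG at 20% or more belonged to Hist1h4f, whose 6 CpGs, 334 to 688 bases before the gene, averaged 16.9% ± 4.54 in control pools and 21.5% ± 8.70 in arsenic pools. The pools of Hist1h4f spread from 10% to 29.5%, both in the arsenic group, with an exact permutation p of 0.341. Of the downstream CpGs, 2 near Hist1h2ae averaged 19.6%, 4 near Hist1h2bk 7.59% and 10 near Hist1h1a 15.6%, whereas the 17 CpGs inside Hist1h1a averaged 1.06%.

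Hist1h2be was the 1 member above 20%, at 34.4% ± 1.35 in control pools and 33.7% ± 3.22 in arsenic pools (SD, n = 5 each). Its GENCODE M21 model is the longest among the members, 37455 bases at chr13:23583670-23621124 (minus strand). The coding transcripts of that model start far upstream and splice into the histone exon. RefSeq gives the gene a promoter at that distant start and another directly at the histone exon, at chr13:23585921-23586220. Its 77 CpGs fell into 3 blocks. The 26 CpGs in the exon with the coding sequence averaged 0.834%, as in the other H2B genes. The 41 CpGs centred 6220 bases upstream of the coding start, in the intron, averaged 46.1% and ranged from 11.1% to 84.7%. The 10 CpGs centred 16634 bases upstream, also in the intron, averaged 71.4%.

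None of the blocks separated the groups. The exonic block was at 0.379% ± 0.184 and 1.29% ± 1.54 (exact permutation p = 0.365), with arsenic pools 3 and 4 at 1.93% and 3.72% and the other 8 pools at 0.682% or lower. The block nearer to the coding start was at 46.7% ± 3.04 and 45.4% ± 5.02 (exact permutation p = 0.675), with arsenic pool 1 lowest at 37.3%. The farther block was at 72.6% ± 3.73 and 70.2% ± 5.41 (exact permutation p = 0.444).

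**Figure D3:**
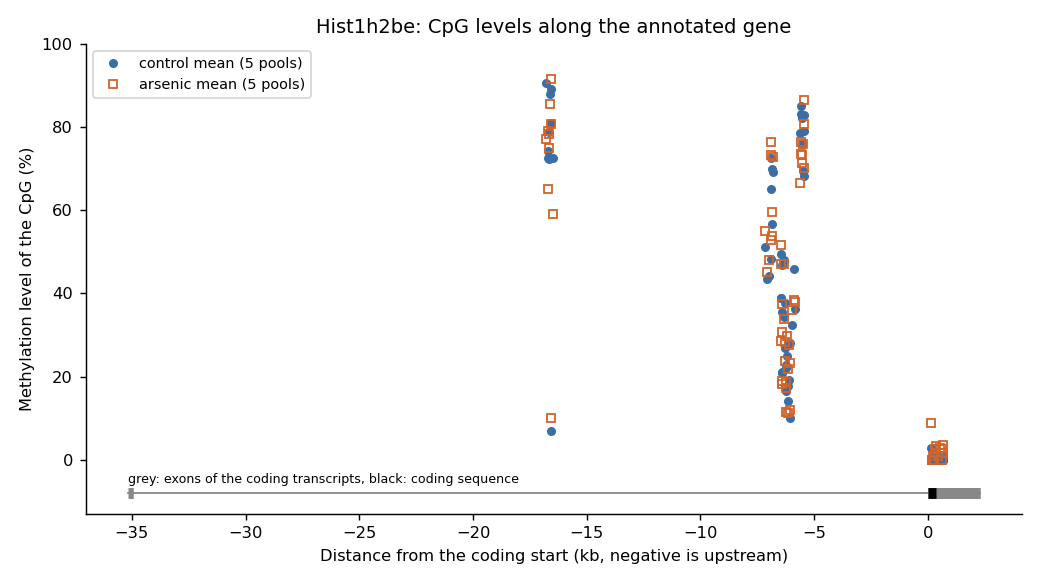
Methylation level of each of the 77 Hist1h2be CpGs in percent against its distance in kb from the coding start, as group means of 5 pools (blue circles control, orange outlines arsenic), with the gene model at the bottom. The CpGs at the coding sequence average 0.834%, and the blocks in the upstream intron average 46.1% and 71.4% in both groups together.

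The question of the study was whether arsenic in gestation changes methylation in these cells. For the canonical members no change passed the test. With limma on gene mean levels and Benjamini-Hochberg adjustment over 27284 genes, 0 of 29 member genes were called, as were 0% of all genes. At an unadjusted p under 0.05 stood 1 of 29 members, against 7.46% of all genes. The differences were small in both directions: 15 members were higher and 14 lower in the arsenic group, with a median difference of 0.0149 percentage points, against -0.308 over all genes. The median size of the difference was 0.593 points over the members and 1.17 over all genes.

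The member below 0.05 was Hist1h1a, at chr13:23763666-23764406 (plus strand), which encodes the linker histone H1.1. Its levels were 5.14%, 6.68%, 3.88%, 5.89% and 5.76% in control pools 1 to 5 and 6.22%, 9.34%, 8.74%, 5.30% and 7.54% in arsenic pools 1 to 5. The groups overlapped, since arsenic pools 1 and 4 lay below control pool 2. The arsenic group was 1.96 points higher (limma SE 0.819, unadjusted p = 0.0373, adjusted p = 0.662, exact permutation p = 0.0714). By place, the CpGs downstream of Hist1h1a averaged 13.7% ± 3.64 and 17.5% ± 5.20, and those inside it 0.609% ± 0.858 and 1.52% ± 1.38.

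The other members with the smallest p did not separate the groups either. Hist1h2af and Hist1h3g, an H2A and an H3 gene with the same 4 CpGs, were at 0.467% ± 0.643 and 2.20% ± 2.23, a difference of 1.73 points (limma adjusted p = 0.699), with arsenic pool 4 highest at 5.77% and arsenic pool 3 at 0%. Without arsenic pool 4 the difference was 0.835 points. Among lower values, Hist1h4n and Hist1h2ap, an H4 and an H2A gene with the same 14 CpGs, were at 1.49% ± 1.29 and 0.620% ± 0.495, a difference of -0.866 points (limma adjusted p = 0.736), and -0.369 points without control pool 1. Hist1h2bk, with 4 CpGs, was at 8.71% ± 3.71 and 6.48% ± 1.83, a difference of -2.23 points (limma adjusted p = 0.758). It was -3.69 points without control pool 5 (limma unadjusted p = 0.0101, adjusted p = 0.705) and -1.41 points without control pool 2. For each of these the spread between pools of 1 group exceeded the difference between groups.

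By single CpG, logistic regression on reads at a q of at most 0.01 and a pooled difference of at least 10 points called 1 of 460 member CpGs as differentially methylated (DMC), which is 0.217%, against 2.27% of the whole table and 0.200% of the CpGs of the table with a mean under 10%. It lay downstream of Hist1h1a at chr13:23764894 (minus strand), with 27.3%, 23.1%, 2.86%, 20% and 11.1% in the control pools and 28.6%, 36.4%, 48.1%, 18.2% and 53.3% in the arsenic pools. The count was 0 without control pool 3, control pool 5 or arsenic pool 5, and 2 without control pool 2, arsenic pool 2 or arsenic pool 3. The groups overlapped at this CpG too, with arsenic pool 4 below control pools 1, 2 and 4. The model takes reads as independent, and limma on log2 ratios per CpG gave this CpG an adjusted p of 0.830. At 0 of 460 member CpGs did the groups not overlap, against 0.693% of the table. Among CpGs of the table with a mean under 10% the share was 0.127%, so the count of the members is near that background.

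The testis-type genes Hist1h2ba and Hist1h2aa were more methylated than every member in each pool. Over their 39 CpGs the levels were 63.5%, 63.6%, 75.9%, 65.8% and 71.7% in control pools 1 to 5 and 71.9%, 73.1%, 73.1%, 85.6% and 83.6% in arsenic pools 1 to 5. They exceeded the mean of the 30 member genes by 59.1 to 80.7 points in 10 of 10 pools, 64.2 ± 5.64 in control pools and 73.3 ± 6.40 in arsenic pools. A level this high was not unusual in the table: 16.5% of all genes were at or above it.

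Between the groups the pair was 9.34 points higher in the arsenic group, 77.5% ± 6.57 against 68.1% ± 5.52, but did not pass the test over all genes (limma SE 3.56, unadjusted p = 0.0250, adjusted p = 0.635, exact permutation p = 0.0556). The groups overlapped in that control pool 3, at 75.9%, lay above 3 of 5 arsenic pools. Of the 39 CpGs, 29 had the higher mean in the arsenic group. By logistic regression 7 of 39 were DMCs, all higher in the arsenic group, at 17.9%, against 0.784% of the table called in that direction and 3.42% called in either direction among CpGs with a mean of 40% to 90%. Of the 7, 6 lay on the minus strand, and those in Hist1h2aa lay between chr13:23934568 and chr13:23934676. CpGs this close can be read on the same fragments, so neither the 29 nor the 7 are counts of separate measurements. The count of DMCs was 3 without control pool 2 or arsenic pool 4, 4 without control pool 1, control pool 4 or arsenic pool 5, and 9 without control pool 3. Limma per CpG called 0 of the 39, with 9 at an unadjusted p under 0.05, against 6% of the table. Logistic regression with an overdispersion factor called 0, with 6 at an unadjusted p under 0.05, against 5.4% of the table. At 0 of the 39 CpGs were the groups without overlap, against 0.952% of the CpGs of the table with a mean of 40% to 90%.

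The CpGs inside each gene were also taken apart, a division that was singled out after its values were seen. The 14 CpGs inside Hist1h2aa were at 52.3%, 49.7%, 62.5%, 48.0% and 64.5% in the control pools and at 72.5%, 68.3%, 64.6%, 84.2% and 78.4% in the arsenic pools. The groups did not overlap, by a margin of control pool 5 at 64.5% to arsenic pool 3 at 64.6%, and the same holds for 1.78% of all genes when each CpG counts for its nearest gene only. The difference was 18.2 points, 73.6% ± 7.83 against 55.4% ± 7.60, with an exact permutation p of 0.00794, the smallest that 5 against 5 pools allow, and a limma adjusted p of 0.510. The 25 CpGs inside Hist1h2ba were at 75.2% ± 5.33 and 79.6% ± 6.62, a difference of 4.37 points (exact permutation p = 0.254). Whether both genes differ from each other in this was not tested. Of the 7 DMCs, 5 lay in Hist1h2aa and 2 in Hist1h2ba, with pooled differences of 17.9 to 26.1 points.

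The strands of these genes differed within pools. At 10 CpGs of Hist1h2ba measured on both strands, the minus strand differed from the plus strand by -28.3 to 25.7 points within a pool, and by 10 points or more in 6 of 10 pools. At 6 such CpGs of Hist1h2aa the range was -40.6 to 26.0 points, again with 6 of 10 pools at 10 points or more. For Hist1h2aa the plus strand was at 60.4% against 71.5% (11.02 points, exact permutation p = 0.111) and the minus strand at 50.4% against 75.7% (25.4 points, exact permutation p = 0.0397). For Hist1h2ba the difference was -1.42 points on the plus strand and 9.72 on the minus strand. When a coverage of at least 30 in every pool was asked for, 12 CpGs were left, the plus strand of Hist1h2ba. The pair was then 1.42 points lower in the arsenic group (-1.42). At a coverage of at least 20 it was 9.14 points higher. Coverage, strand and gene cannot be told apart in the value at 30.

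The level of the pair was set against that of the marker promoters across the 10 pools. The relation did not pass 0.05 for the germline promoters and did for the maternal imprints. With the mean of the germline promoters, Pearson r was 0.626 (permutation p = 0.0503) and Spearman rho 0.636 (permutation p = 0.0551), and r was 0.648 without arsenic pools 1 and 5, the farthest from the median of the list. With the maternal imprints, r was 0.707 (permutation p = 0.0215, adjusted over both relations 0.0430) and rho 0.721 (permutation p = 0.0238, adjusted 0.0476), and r was 0.756 without the same pools. Arsenic pools 4 and 5, the highest for the pair, were also highest for the germline promoters, at 66.3% and 72.0%, and for the imprints, at 40.3% and 51.4%. Arsenic pool 1 was lowest on both lists, at 47.3% and 25.7%. Over the whole table arsenic pool 1 was also lowest, at 42.1%, and arsenic pool 5 highest, at 47.3%. The correlations run over both groups together, and the means of the pair and of both lists were higher in the arsenic group. The part of these markers in the group difference was not tested.

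**Figure D4:**
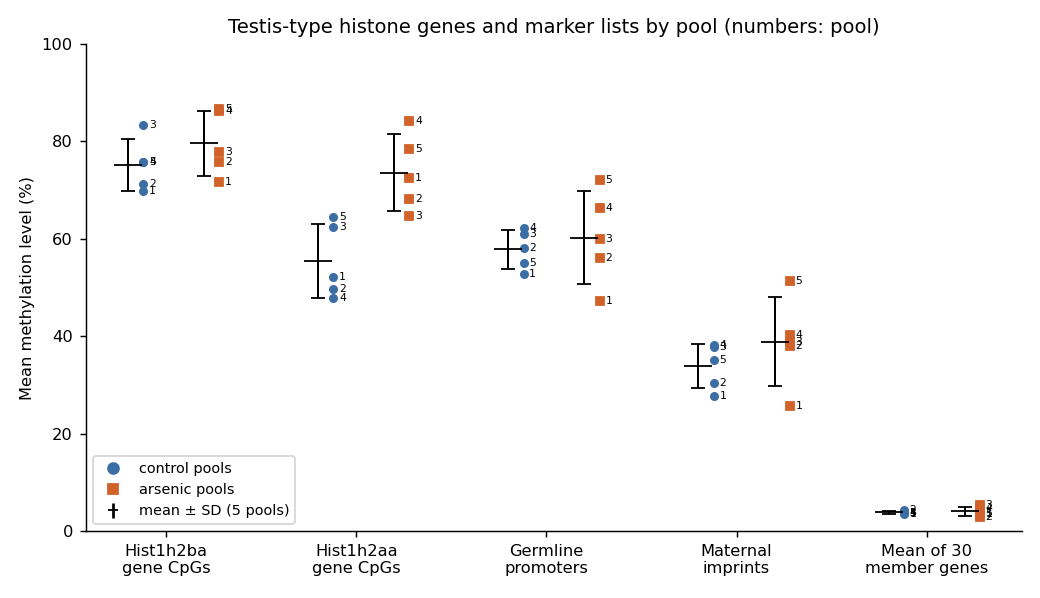
Mean methylation level in percent of the CpGs inside Hist1h2ba and Hist1h2aa, of the germline promoter list, of the maternal imprint list and of the 30 member genes, with a numbered point per pool (blue circles control, orange squares arsenic) and the mean ± SD of 5 pools in black. The Hist1h2aa points of the groups do not overlap, at 48.0% to 64.5% and 64.6% to 84.2%, while the member mean stays between 2.99% and 5.35%.

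Histone genes elsewhere in the genome were read in the same way. Of the replication-dependent histones of the Hist2, Hist3 and Hist4 clusters, 11 of 14 had CpGs, all 11 under 5%, with a median of 1.08%. The 11 replication-independent histones had a median of 1.56%, and 2 of them were at 20% or more, H2afy at 67.1% and H2afy2 at 43.3%, which encode macroH2A variants and have long introns. Of 6 germ-line histones outside Hist1, 2 had CpGs, and both were methylated: H1fnt at 51.4% ± 4.20 and 56.3% ± 8.89, and Hils1 at 71.9% ± 0.896 and 76.8% ± 6.84 in the control and arsenic groups, both linker histones of spermatids. Limma covered 23 of these 24 genes and called 0, with a smallest adjusted p of 0.720. Logistic regression called 6 of the 20 CpGs of H1fnt and 0 of the 7 of Hils1 as DMCs. Among CpGs of the table with a mean of 40% to 90%, 3.42% were called. Close CpGs can share reads here too.

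**Figure D5:**
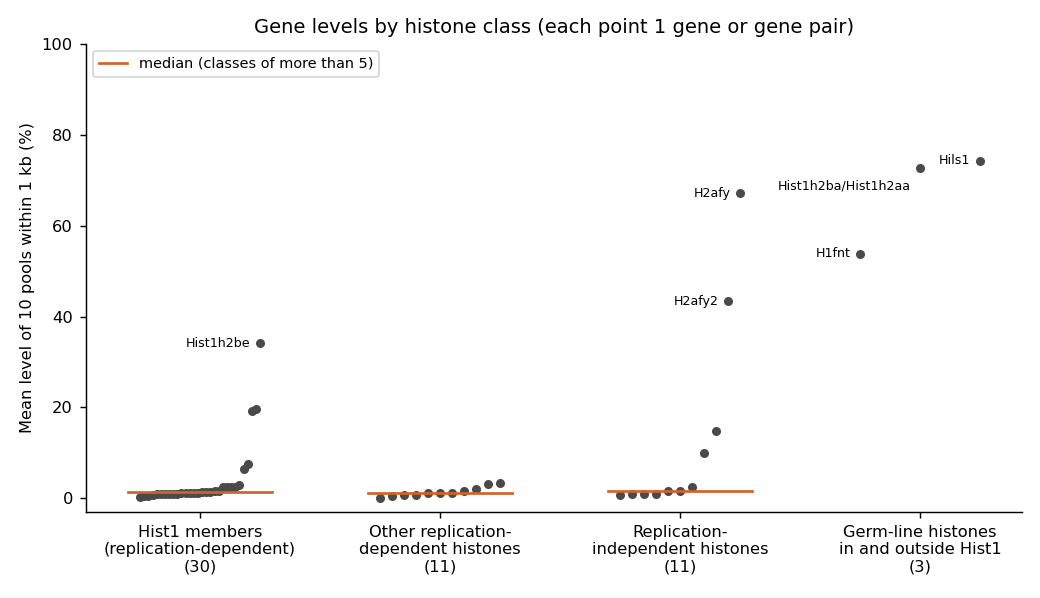
Mean level of 10 pools within 1 kb in percent, 1 point per gene (Hist1h2ba and Hist1h2aa as 1 point), for 30 Hist1 members, 11 other replication-dependent histones, 11 replication-independent histones and the germ-line histones, with the median of each larger class in orange. Germ-line histones lie between 53.8% and 74.3%, and the medians of the other classes between 1.08% and 1.56%.

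The genes that make histone mRNA, from its transcription to the processing of its 3′ end, were fixed as a list of 17 symbols. Of these symbols 16 were in the annotation, and 14 had CpGs. Limma called 0 of 14, 5 being higher and 9 lower in the arsenic group. At an unadjusted p under 0.05 stood 1 of 14, against 7.46% of all genes, so that this count is near the background. It was Sympk, the scaffold of the 3′ cleavage complex, at 19.9% over the 10 pools, with a difference of -2.20 points and an adjusted p of 0.628. Levels of 20% or more were found at Lsm10 (53.7%) and Lsm11 (31.5%), parts of the U7 particle, Cpsf3 (47.9%), the cleaving subunit, Casp8ap2 (39.9%), Hinfp (35.1%), which binds H4 promoters, and Zfp473 (26.4%), over all 10 pools.

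For the 23 members without CpGs nothing can be said of their methylation. Their window of gene and 1 kb on each side held a median of 102 CpGs and 8 CCGG sites, against 96 and 8 for the 30 members with CpGs. No fragment of 40 to 220 bases between CCGG sites lay in the window of 5 of the 23, against 1 of the 30. Hist1h1t, the linker histone of spermatocytes, had 53 CpGs and 3 CCGG sites in that window, and Hist1h4b, an H4 gene, had 53 and 2, which are the lowest numbers of CpGs among the members, and neither had such a fragment.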

How the data were processed

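RRBS libraries of prospermatogonia were sequenced for 5 control and 5 arsenic pools. The authors trimmed reads with Trim Galore 0.6.5, mapped them to mm10 with Bismark 0.22.3 and united CpGs with methylKit 1.22.0, with the versions per the submitters' processing notes. The deposited table holds counts of total, methylated and unmethylated reads per CpG and pool, with the strands of a CpG apart and a coverage of at least 10 in each pool. How PCR duplicates and overlapping mates were handled is not given in the sources used here. Reads of C3H/HeN mice were mapped to the reference genome, so a strain variant at a CpG can look like a change in methylation, and this was not examined. The authors left out 1 further arsenic sample of low depth, which was not analysed here.

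Levels are methylated reads as a share of total reads, in percent. The level of a gene in a pool was the unweighted mean over CpGs within 1 kb of its GENCODE M21 model. Levels of 27284 genes with at least 3 CpGs were compared with limma 3.58.1 (R 4.3.3, moderated with a trend, Benjamini-Hochberg adjustment, threshold 0.05). Single CpGs were compared by logistic regression on the counts at a q of at most 0.01 and 10 points, which takes reads as independent, by the same model with an overdispersion factor, and by limma on log2((methylated + 1)/(unmethylated + 1)). Single values were compared by exact two-sided permutation over the assignments of pools to groups, and correlations by 100000 permutations. Python 3.11.15 with scipy 1.17.1 was used, and the tests were checked on simulated data. The p-values of limma, of the permutations and of the model with the overdispersion factor rest on the spread between pools. Those of the logistic regression without that factor do not.

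Member CpGs had a median coverage of 32 (27 to 49 by pool). By the Wilson method at 95%, 5 methylated of 10 reads allow 23.7% to 76.3%, and 0 of 32 allow up to 10.7%. Such intervals cover counting error only, since PCR reads are not independent molecules.

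The members and lists were chosen with earlier results of these data known. Genes were named by a rule: the testis-type genes, members at 20% or more, the 3 members with the smallest limma p among rises and among falls, for each histone type the member under 5% with the most CpGs, members with a DMC, and listed genes past a threshold or at 20% or more. Hist1h4f, Hist1h2ae and Hist1h4b, and the genes of the homologous stretch and of identical promoters, were named after their values were seen. Lists held germline promoters, maternal imprints and the imprinted control H19, other histones and the histone mRNA pathway. H19, known to be methylated on the paternal copy, was at 43.9% ± 5.02 and 42.8% ± 4.39 (SD, n = 5 each). Alternatives in coverage, weighting, strands, window, test and left-out pools are given in the closing section.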

Additional observations from a re-analysis of the deposited data

Results flagged for a closer look

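A pool was taken to stand apart from the other 4 of its group where its gap to the nearest of them exceeded 0.71 of the range of the group. Among 62 groups of 5 pools tested, 8 had such a pool. Chance flags about 1 in 20 groups of separate, normally distributed values, a rate that need not hold here, since many of these levels lie at or near 0 and the mean of the member genes contains the other loci. Of the 8, 5 were arsenic pools and 3 control pools.

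At H2A and H2B genes, arsenic pool 3 reached 13.5% at the 13 CpGs of Hist1h2bm and the pseudogene Hist1h2aj, where the other arsenic pools lay between 0.385% and 2.20%. In that pool 11 of the 13 CpGs had the same level of 12.5%, so these CpGs are not separate measurements. The neighbouring Hist1h2ak and Hist1h2bn stood apart in both groups, at 8.13% in control pool 2 against 0.493% to 1.45% in the other control pools, and at 7.16% in arsenic pool 3 against 1.02% to 1.79% in the other arsenic pools. Of their 14 CpGs, 8 had the same level of 8.33% in control pool 2, and 11 the same level of 7.14% in arsenic pool 3. Hist1h2bl and Hist1h2ai were at 1.38% in arsenic pool 4, against 0% to 0.379%.

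At H4 and H1 genes the values were smaller. Hist1h4n and Hist1h2ap were at 1.48% in arsenic pool 4, against 0.258% to 0.584%. Hist1h4i was at 4.17% in arsenic pool 5, against 0% to 0.629%. Hist1h1e was at 0.962% in control pool 2, against 0% in the other control pools, so that any level above 0 would have stood apart. The mean of the 30 member genes was 4.49% in control pool 2, against 3.67% to 3.87% in the other control pools.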

How the results depend on the processing

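Over 223 alternatives for single named genes, 204 kept the direction and 19 turned it. Limma was fitted for 214 of them and 0 passed its threshold, and the other 9 had a permutation test only. Hist1h2aa and Hist1h2ba share their 39 CpGs and were counted once each. The count of member genes called by limma was 0 under every alternative run. The excess of the testis-type pair over the members ranged from 65.3 to 71.8 points over settings and from 67.4 to 69.8 with 1 pool left out. The cause of the changes below was not tested.

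The pair was 9.34 points higher in the arsenic group and ranged from 7.31 to 11.3 with 1 pool left out. It was -1.42 at a coverage of at least 30, where the 12 CpGs left are those of 1 strand of Hist1h2ba, and 6.83 with coverage weights. With each CpG counted for its nearest gene only, a planned setting, the difference was 18.2 for Hist1h2aa and 4.37 for Hist1h2ba. The split of the pair by gene, which gave the same values, was added after seeing the data. Within 500 bases the difference was 16.9 for Hist1h2aa and 7.98 for Hist1h2ba, and in the promoter window 4.74 and 16.9. Without CpGs whose converted window is also found at another histone gene, also added after seeing the data, the difference of the pair was 10.4. DMCs among member CpGs numbered 0 with the overdispersion factor, with limma per CpG, at a coverage of at least 20 or 30 and with reads thinned to 10, and 0 to 2 with 1 pool left out. DMCs of the pair numbered 0 under the same settings other than a coverage of at least 20, 4 at 20 points or more, and 3 to 9 with 1 pool left out. Member CpGs without overlap numbered 0 to 3 of 460 with 1 pool left out, where 1.21% to 1.47% of the table had none.

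Differences near 0 turned. With 1 pool left out, Hist1h2be ranged from -1.43 to 0.589 points (positive without arsenic pool 1), Hist1h1c from -0.131 (without arsenic pool 4) to 0.547, Hist1h2ad from -0.355 to 0.0995, Hist1h2bh from -0.0768 (without arsenic pool 4) to 0.448, Hist1h3f from -0.409 to 0.157 and Hist1h4j from -0.138 to 0.0482. Hist1h2bh was -0.611 at a coverage of at least 30 and -0.665 in the promoter window, Hist1h3f 0.0435 with coverage weights and 0.00310 with strands merged, and Hist1h4j 0.00252 with coverage weights. A coverage of at least 20 or 30, the promoter window or the nearest gene left too few CpGs for 14 of the planned values, mostly of Hist1h1a, Hist1h2af, Hist1h2ad and Hist1h4j.

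With the replicate number as a block (replicate block) the pair kept 9.34 points with a limma unadjusted p of 0.0258 and an adjusted p of 0.793, and no call changed. Same-numbered pools correlated by -0.0379 to 0.0872, and 1 of 5 numbers correlated best with its own, so the numbers were not taken to pair the pools.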

Other observations

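Hist1h2al, a Hist1h pseudogene outside both intervals, was measured at 6 CpGs and entered none of the counts above. Control pools were at 23.7% ± 13.5 and arsenic pools at 42.1% ± 8.22 (SD, n = 5 each), 18.4 points higher in the arsenic group, with an exact permutation p of 0.0159, a limma unadjusted p of 0.0146 and an adjusted p of 0.615. Control pool 3 was at 2.58% and the other control pools at 19.3% to 37.6%. The groups overlapped, since control pool 5 lay above arsenic pool 1, at 30.4%. Coverage at these CpGs was 10 to 31. Hist1h2al was picked out after its values were seen.

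The 426 CpGs of the intervals that lay farther than 1 kb from a member gene averaged 15.4% ± 0.492 in control pools and 16.01% ± 1.19 in arsenic pools, and 241 of them were under 5%. Logistic regression called 2 of these CpGs, 1 of them higher in the arsenic group, which is 0.469%, against 2.27% of the table. The groups did not overlap at 2, also 0.469%, against 0.693% of the table.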
